A study of Arabidopsis thaliana with 12 samples.

Results

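The genes described here are 4 of the chloroplast's thiol redox system and malate valve: NTRC, SRX, AT3G52960 and AT5G58330. They were taken as every probe whose platform annotation names exactly 1 gene, that gene being one of these. This gave 4 probes, 1 per gene, of the 3439 on the array and of the 692 that name a single gene. No probe that names several genes includes any of them. The genes were chosen on their light and dark intensities in these samples as well as on their function, so those values are given as a description, with no test.

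RNA of Arabidopsis thaliana plants, all wild type of the Landsberg ecotype, was measured in 12 samples. The 6 light samples came from plants that had 30 min of light following 12 h of darkness, and the 6 dark samples from plants adapted to the dark for 12 h. Every plant thus shared the 12 h of darkness. With no group left in darkness 30 min longer, effects of light and of the later time cannot be told apart. The labels give no plant age, tissue or number of plants per sample. Where RNA comes from a mix of cell types, fewer cells of a type and less RNA per cell cannot be told apart.

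Chloroplast enzymes are switched by the reduction of disulfide bonds. In light, ferredoxin passes electrons through ferredoxin-thioredoxin reductase to thioredoxins, while NTRC, a fusion of an NADPH-dependent thioredoxin reductase with its own thioredoxin domain, draws on NADPH and so also works in the dark. Peroxiredoxins spend thiol reductant to remove hydrogen peroxide and organic peroxides, and sulfiredoxin (SRX) repairs the typical 2-cysteine peroxiredoxins once their catalytic cysteine has been over-oxidised. NADP-dependent malate dehydrogenase, itself activated through thioredoxin, turns oxaloacetate into malate, which carries surplus reducing power out of the chloroplast.

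Deposited intensities summed to between 3532 and 3666 per light sample and to between 3247 and 3321 per dark sample. Their median was 0.678 ± 0.00794 in light and 0.467 ± 0.0202 in the dark (SD, n = 6 each), a log2 difference of 0.54. The labels do not say how the intensities were scaled, so differences below are of quantile-normalized log2 values unless called deposited. Samples numbered 1 and 2, 3 and 4, and 5 and 6 resembled each other, and are called pairs. Of the marker genes of green tissue, 4 of 27 had a single-gene probe. A probe was called at a Benjamini-Hochberg adjusted p under 0.05 in the limma fit over all probes. Of the 4 markers 1 was called higher, 2 lower and 1 neither, beside 23.6% higher and 29.0% lower over all probes. Of these photosystem genes, LHB1B2 had a light minus dark log2 difference of -1.26, PSAN of -0.99, PSBY of -0.06 and PSBW of 0.50, which turned to -0.46 with arrays centred on their median. With the arrays centred PSBY, at -0.38, was called lower too. As deposited PSBW stood at 0.08 and was not called (limma adjusted p = 0.579). All 4 were detected well above the floor in both groups, their lowest value being 7.53 times it. None of 5 root markers and of 1 seed marker had one, so RNA from such tissue could not be assessed.

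The 4 genes did not behave as 1 group. AT5G58330, the export enzyme, stood 7.50-fold and AT3G52960, a peroxiredoxin, 3.02-fold higher in light after normalization. NTRC, on the supply side, and SRX, the repair enzyme, stood at 0.931-fold and 0.778-fold, with the opposite sign on the values as deposited. The deposited light and dark intensities did not overlap for 2 of the 4 genes, AT5G58330 and AT3G52960, as was the case for 38.8% of all probes. This share is given as background, since the same contrast served to choose the genes.

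**Figure D1:**
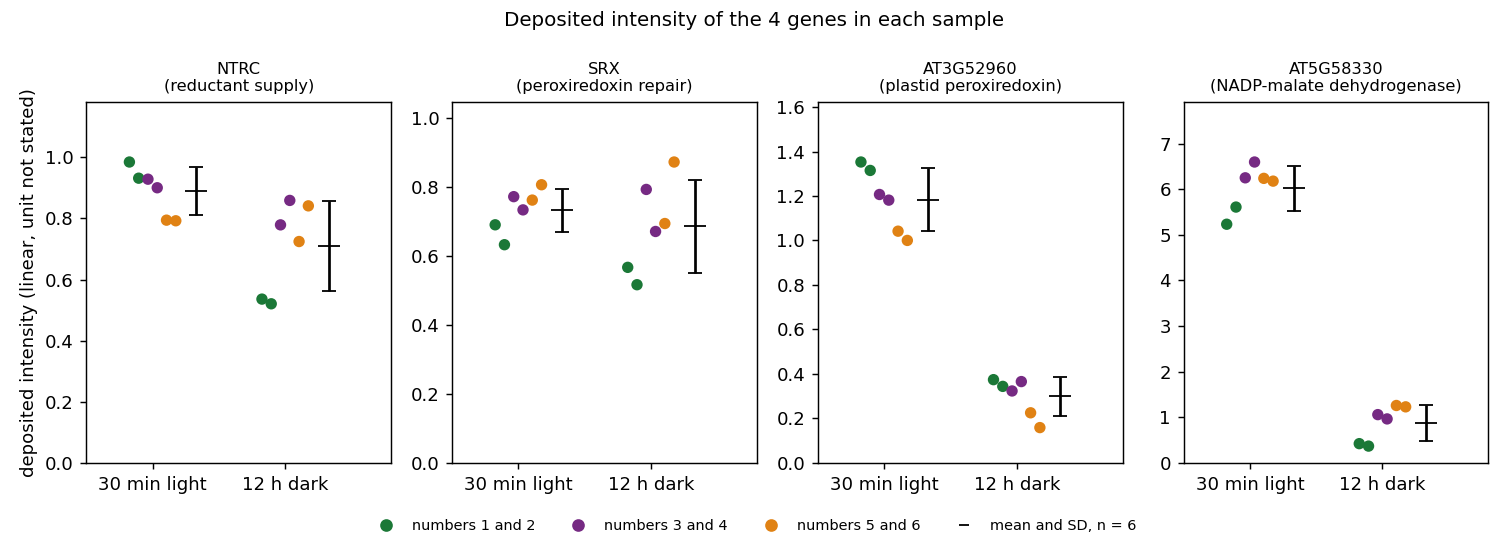
Deposited intensity (linear, unit not stated) of NTRC, SRX, AT3G52960 and AT5G58330 in the 6 light and 6 dark samples, with points coloured by pair of sample numbers and the mean and SD of each group beside them; each panel has its own axis from 0. The light points of AT3G52960 (1.0 to 1.35) and AT5G58330 (5.23 to 6.60) lie above all their dark points, while those of NTRC and SRX overlap the dark ones.

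NTRC, the bifunctional reductase, had deposited intensities from 0.792 to 0.985 in the light samples, with a median of 0.914, against 0.521 to 0.859 in the dark samples, with a median of 0.752. The groups overlapped, and the low end of the dark range came from samples 1 and 2, at 0.536 and 0.521. The other 4 dark samples lay between 0.724 and 0.859. Light was thus 1.84 and 1.79 times dark for numbers 1 and 2, but 0.942 to 1.19 times for numbers 3 to 6.

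After normalization NTRC averaged -0.38 ± 0.13 in light and -0.28 ± 0.26 in the dark (log2 level, SD, n = 6 each), a light minus dark difference of -0.10 ± 0.35 (SD of the 6 differences between equal numbers). The sign was not shared by the pairs, which gave 0.32, -0.23 and -0.40. It was positive for 2 of the 6 numbers. The difference was smaller than its own spread between samples, and 43.2% of all probes had a lower one. As deposited it was positive, at 0.35 ± 0.41 (SD of 6 differences), again within its spread, so these data give NTRC no settled direction.

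AT3G52960 encodes a type II peroxiredoxin of the plastid known as PRXIIE. That name rests on general knowledge, since the gene table used here gives no description. Its deposited intensities ran from 1.0 to 1.35 in the light samples, with a median of 1.19, against 0.159 to 0.374 in the dark samples, with a median of 0.334. Every light sample stood above every dark one, with light 3.23 to 6.30 times dark between equal numbers. The means were 1.18 ± 0.142 in light and 0.299 ± 0.0870 in the dark (SD, n = 6 each).

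The normalized difference of AT3G52960 was 1.60 ± 0.32 (log2, SD of 6 differences) and positive for all 6 numbers. By pair it was 1.41, 1.44 and 1.94, or 2.65-fold, 2.71-fold and 3.84-fold. The third pair stood apart through its dark samples 5 and 6, at 0.225 and 0.159, below the other 4 at 0.323 to 0.374. In the light the same pair was also the dimmest, at 1.04 and 1.0. The dark signal was weak. In light the signal was at least 6.18 times the floor of its column, the 5th percentile of the positive values, against 1.34 to 3.32 times in the dark. In dark sample 6, the weakest, the margin was the smallest of the 12, so the size of the third pair's difference rests on a value close to the floor.

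SRX, the sulfiredoxin, had deposited intensities from 0.632 to 0.806 in the light samples, with a median of 0.747, against 0.516 to 0.872 in the dark samples, with a median of 0.682. The light range lay inside the dark range. Samples 1 and 2 were the 2 lowest of each group, at 0.690 and 0.632 in light and at 0.567 and 0.516 in the dark. Light was 0.924 to 1.22 times dark between equal numbers and above 1 for 4 of the 6.

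Relative to the shift of the arrays, SRX was lower in light. Its normalized levels were -0.69 ± 0.14 in light and -0.32 ± 0.23 in the dark (log2, SD, n = 6 each), a difference of -0.36 ± 0.11 (SD of 6 differences) that was negative for all 6 numbers. The pairs gave -0.28, -0.39 and -0.42. Of all probes, 30.2% had a lower difference. As deposited the sign was positive, at 0.11 ± 0.17, against a median of 0.44 over all probes.

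AT5G58330 encodes chloroplast NADP-dependent malate dehydrogenase, the enzyme at the entry of the malate valve. Its deposited intensities ran from 5.23 to 6.60 in the light samples, with a median of 6.21, against 0.368 to 1.26 in the dark samples, with a median of 1.01. The groups were far apart. The lowest light sample was 4.16 times the highest dark one. Light samples varied little, with a coefficient of variation of 8.30%, against 44.6% in the dark.

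The wide dark spread of AT5G58330 lay between pairs, not within them. Dark samples 1 and 2 stood at 0.422 and 0.368, samples 3 and 4 at 1.06 and 0.964, and samples 5 and 6 at 1.26 and 1.23. On the normalized log2 scale the SD between the 3 pair means was 0.75 in the dark, against an SD within pairs of 0.11. The pair means in light were 5.42, 6.42 and 6.21 as deposited, so samples 1 and 2 were also the lowest there, by a smaller margin. The normalized difference averaged 2.91 ± 0.52 (log2, SD of 6 differences) and was 3.53, 2.73 and 2.46 by pair, or 11.6-fold, 6.61-fold and 5.51-fold. The size of the difference thus varied between pairs, while its sign was the same for all 6 numbers.

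Among the normalized differences of all 3439 probes, AT5G58330 ranked 10 and AT3G52960 ranked 110 from the highest. NTRC ranked 1954 and SRX 2400. These ranks moved little with the scaling. They were 9 to 11 for AT5G58330, 91 to 131 for AT3G52960, 1910 to 1954 for NTRC and 2340 to 2428 for SRX under quantile normalization, arrays centred on their median, cyclic loess and the values as deposited. Measured from the median of all probes under each of these 4 scalings, the difference was 2.48 to 2.99 for AT5G58330 and 1.47 to 1.60 for AT3G52960. It was -0.12 to -0.09 for NTRC and -0.39 to -0.33 for SRX (log2). Centring on the median shifts every probe of an array alike, so its ranks and distances necessarily equal those as deposited.

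**Figure D2:**
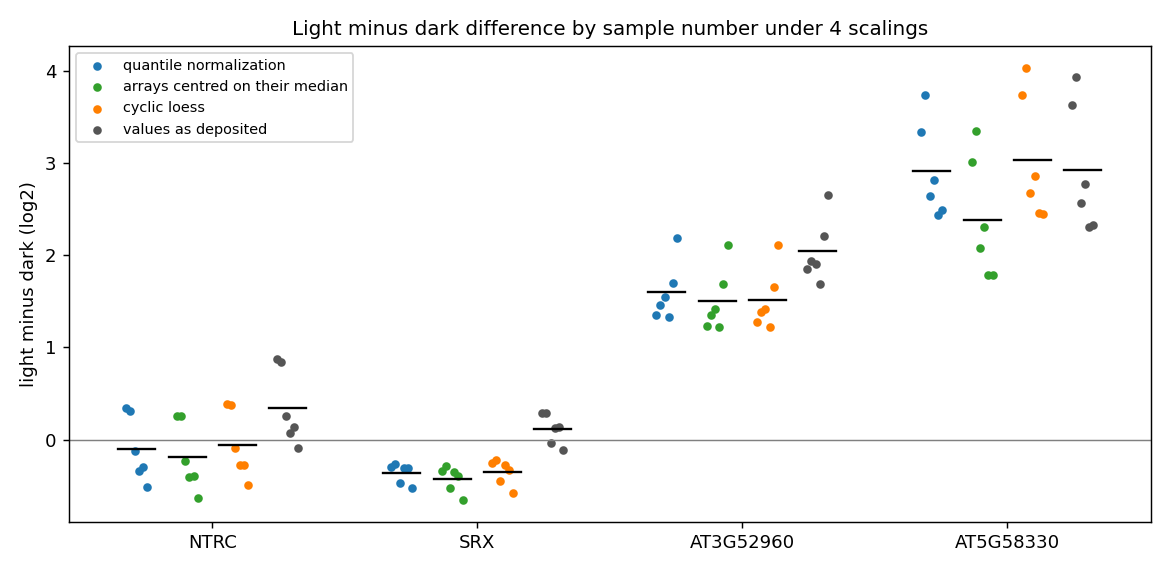
Light minus dark difference (log2, vertical axis) of each gene for the 6 sample numbers under 4 scalings, with a black bar at the mean. AT3G52960 and AT5G58330 lie above 0 for every number under every scaling, whereas the mean of NTRC and of SRX is above 0 on the values as deposited and below 0 under the other scalings.

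**Figure D3:**
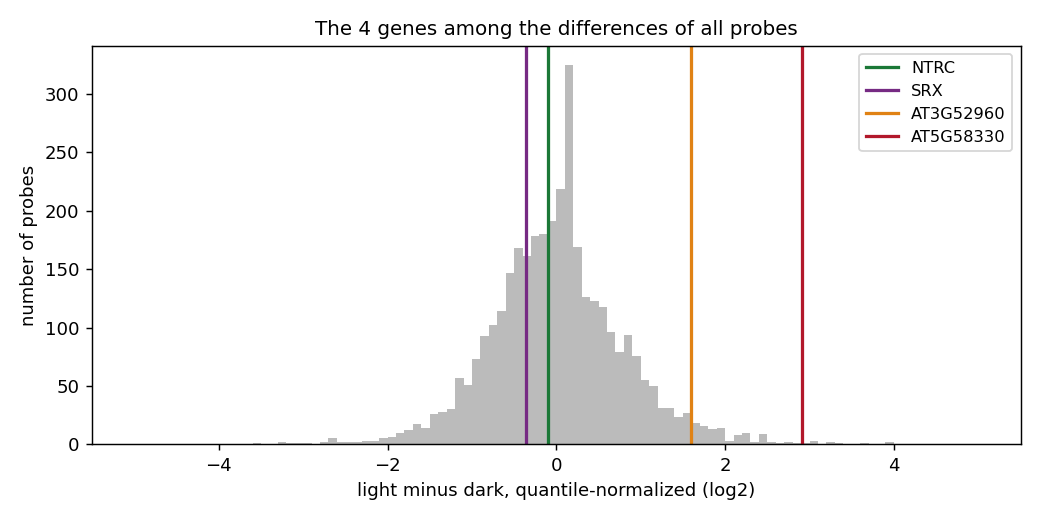
Number of probes (vertical axis) by light minus dark difference after quantile normalization (log2, horizontal axis), over all 3439 probes, with a line for each of the 4 genes. NTRC (-0.10) and SRX (-0.36) lie in the bulk of the distribution and AT3G52960 (1.60) and AT5G58330 (2.91) in its upper tail; the peak between 0.1 and 0.2 includes 153 probes at the floor in all 12 samples, none of them called.

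Reductant supply, peroxide removal and reductant export were set against each other by subtracting the change of one gene from that of another within each sample number, a quantity from which a single factor per array cancels, though a rescaling that depends on brightness does not. Supply is represented here by NTRC alone. AT2G04700, which also belongs to reductant supply, is described further below. The change of AT5G58330 exceeded that of NTRC by 3.01 ± 0.25 (log2, SD, n = 6 numbers), or 8.06-fold, with a range of 2.73 to 3.42. Although both genes varied by pair, this gap had the smallest SD of the 6 comparisons between the 4 genes after normalization, though not as deposited, where it was 2.58 ± 0.34 and that of SRX minus NTRC had an SD of 0.29. In both genes dark samples 1 and 2 were low. Their mean minus that of the other 4 dark samples was -0.47 for NTRC and -1.28 for AT5G58330 (normalized log2). Of all probes, 15.2% and 3.90% had a lower such value.

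The change of AT3G52960 exceeded that of NTRC by 1.70 ± 0.61 (log2, SD, n = 6) and that of SRX by 1.96 ± 0.41. Both were positive for all 6 numbers. The first ranged from 1.01 and 1.15 for numbers 1 and 2 up to 1.99 and 2.70 for numbers 5 and 6, so its size differed between pairs. The change of SRX minus that of NTRC was smaller, at -0.26 ± 0.30 (log2, SD, n = 6). It was within its spread, at -0.63 and -0.57 for numbers 1 and 2 and between -0.34 and 0.03 for the others.

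The change of AT5G58330 exceeded that of SRX by 3.27 ± 0.46 and that of AT3G52960 by 1.31 ± 0.75 (log2, SD, n = 6 each). The gap between AT5G58330 and AT3G52960 was positive for all 6 numbers after normalization. It ran from 0.30 to 2.27, lowest in the third pair, where AT3G52960 was near the floor in the dark, and highest in the first, where AT5G58330 was low in the dark. As deposited it was 0.88 ± 0.92 and was below 0 for number 6, at -0.33, so the order of these 2 changes is not settled.

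**Figure D4:**
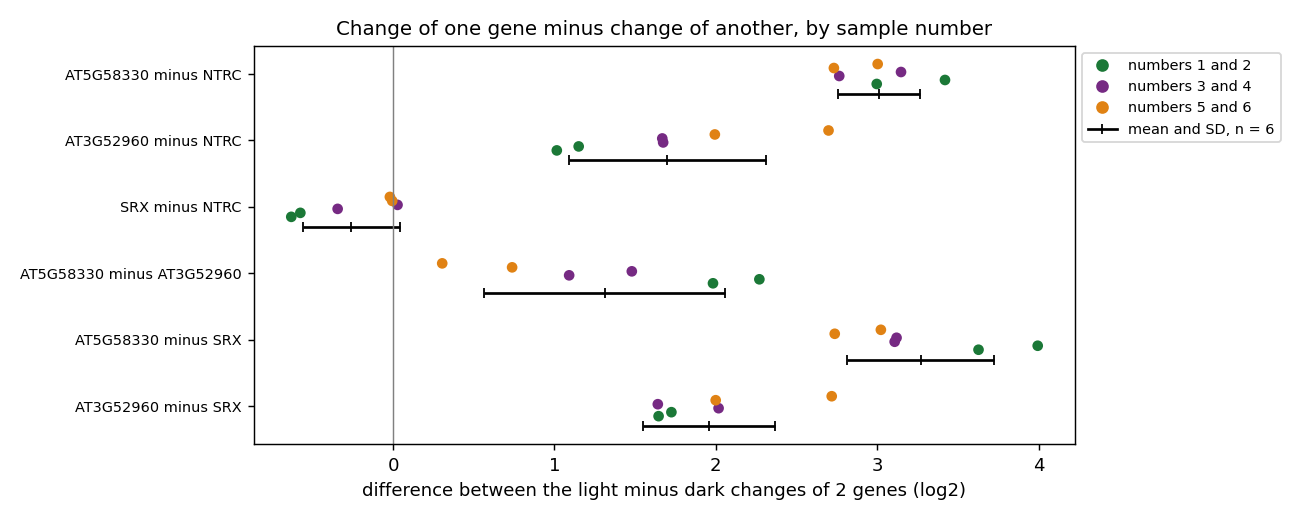
Light minus dark change of one gene minus that of another (log2, horizontal axis) for the 6 comparisons between the 4 genes, with 1 point per sample number coloured by pair and the mean and SD below. The points of AT5G58330 minus NTRC are close together between 2.73 and 3.42, and those of SRX minus NTRC between -0.63 and 0.03.

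Of 116 genes in 9 lists of the thiol redox, antioxidant and malate pathways, 112 were not among the 4 described, and 3 of those had a probe of their own. These were AT2G04700, PRK and SBPASE. Of these 3, 2 fell and 1 was not called. Of all probes 52.5% were called, 23.6% higher and 29.0% lower (limma adjusted p under 0.05). The lists were written with earlier results of these data known, so the calls of these 3 genes are no independent test. A further 10 probes name a pathway gene together with others and were not used. No thioredoxin, no other peroxiredoxin, no ascorbate or glutathione enzyme and no other malate gene of the lists had a single-gene probe, so the change of those steps was not analysed here.

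AT2G04700, the catalytic subunit of ferredoxin-thioredoxin reductase, which feeds the light-driven branch of thioredoxin reduction, fell in light. Its deposited intensities were 0.299 to 0.416 in the light samples, with a median of 0.350, against 0.467 to 0.851 in the dark samples, with a median of 0.593. The groups did not overlap. The normalized difference was -1.27 ± 0.16 (log2, SE, limma adjusted p = 2.93e-05), or 2.41-fold lower, and negative for all 6 numbers. It was still called with the pairs averaged (limma adjusted p = 0.00743) and as deposited, at -0.79 (limma adjusted p = 0.00101). Dark samples 1 and 2, the lowest for NTRC, were the highest for AT2G04700, at 0.851 and 0.764. The light signal of AT2G04700 was weak, at 1.87 to 2.44 times the floor of its column, against 3.31 to 7.50 times in the dark. The size of its difference thus rests on values near the floor. It was -1.04 with the pseudocount in place of the floor, but stayed at -1.27 with the floor at the 1st or the 10th percentile.

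PRK and SBPASE are Calvin cycle enzymes that thioredoxin activates in light. PRK, the phosphoribulokinase, had deposited intensities of 0.515 to 0.578 in the light samples, with a median of 0.537, against 0.644 to 1.40 in the dark samples, with a median of 0.756, and it fell by 1.12 ± 0.17 (log2, SE, limma adjusted p = 9.94e-05). It was also called with the pairs averaged (limma adjusted p = 0.0148) and as deposited, at -0.68 (limma adjusted p = 0.00687). The groups did not overlap, and dark samples 5 and 6 were the high ones. By pair the normalized difference of PRK was -0.83, -0.89 and -1.63, so its size varied between pairs. SBPASE, the sedoheptulose-bisphosphatase, had 0.541 to 0.911 in the light samples, with a median of 0.764, against 0.415 to 0.668 in the dark samples, with a median of 0.510. Its groups overlapped, and its normalized difference was -0.05 ± 0.15 (log2, SE, limma adjusted p = 0.82), although as deposited it was called higher, at 0.46 (limma adjusted p = 0.0199).

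**Figure D5:**
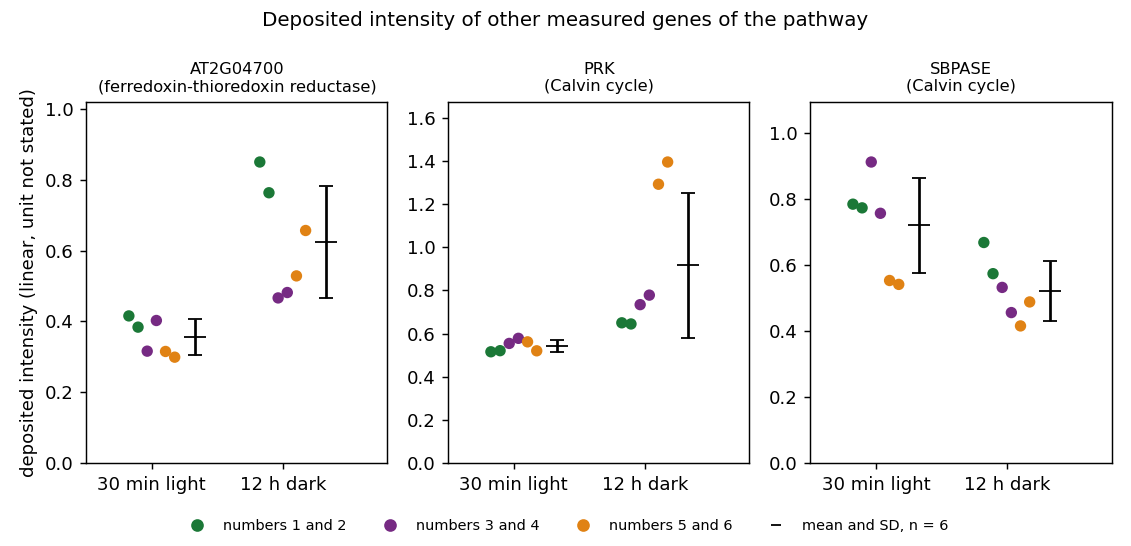
Deposited intensity (linear, unit not stated) of AT2G04700, PRK and SBPASE in the 6 light and 6 dark samples, with points coloured by pair and the mean and SD of each group beside them; each panel has its own axis from 0. All light points of AT2G04700 (0.299 to 0.416) and PRK (0.515 to 0.578) lie below their dark points, and those of SBPASE overlap the dark ones.

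The single-gene probes most like each gene were found by the root mean square difference between mean-centred normalized log2 profiles over the 12 samples, among 493 probes above the 25th percentile of mean level. These profiles include the light minus dark difference that served to choose the genes. The distances therefore partly repeat it and are given as a description. AT5G58330 was closest to AT1G35510, at 0.275, against a median of 1.53 over the probes compared. AT1G35510 had deposited intensities of 13.3 ± 0.666 in light and 1.88 ± 0.505 in the dark (SD, n = 6 each). The next were AT1G49850 and AT3G23940, at 0.514 and 0.584. AT3G52960 was closest to AT1G51080, AT2G30100 and AT1G01250, at 0.240, 0.268 and 0.304, against a median of 0.916. The gene table used here gives these 6 genes no name.

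NTRC was closest to AT5G40070, AT4G13680 and AT1G76220, at 0.168, 0.173 and 0.173, against a median of 0.449. SRX was closest to LAS, a transcription factor of axillary meristems, at 0.153, and to AT2G47830 and CSLA01, of the cellulose synthase-like A family, at 0.161 and 0.163, against a median of 0.469. NTRC and SRX were 0.230 apart, closer to each other than NTRC was to AT3G52960, at 0.957, or to AT5G58330, at 1.55. AT3G52960 and AT5G58330, both higher in light, were 0.985 apart.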

How the data were processed

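The deposited table holds linear intensities from 0 to 100, 1 column per sample. How the authors made them (scanner, background correction, scaling) is not stated in the labels. There is no background measure, and the number of arrays limits the precision. Groups and numbers 1 to 6 come from the sample titles, and all 12 columns were used.

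Since log2 column medians differed by over 0.1, the linear values were quantile-normalized. A floor at the 5th percentile of each column's positive values was set before log2. All 3439 probes were fitted with limma 3.58.1 (lmFit, eBayes; R 4.3.3), light against dark, without a block. A probe was called when its two-sided Benjamini-Hochberg adjusted p was under 0.05. The fit was tested on simulated data with independent noise and few changed probes. The samples here were correlated and many probes were called, so that test does not vouch for the p-values.

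Of 692 probes annotated with a single gene, 690 were matched by gene identifier to the TAIR10.1 gene table, used for symbols only. Named were the 4 genes, the list genes with a probe of their own, and the 3 most alike probes per gene. Genes and lists were chosen with earlier results of these data known.

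Deviations from the group means correlated over probes at 0.41 to 0.65 between light and dark samples of equal number. All 6 exceeded the criterion of 0.1, so light and dark samples of equal number were taken to belong together. This was read from the data and not from a label. Neighbouring numbers (1 and 2, 3 and 4, 5 and 6), the pairs named above, correlated at 0.36 to 0.47 in light and 0.42 to 0.60 in the dark. The main fit treated the samples as independent and took account of neither likeness. Separate plants are not stated for the samples, so the p-values cover only their spread, part of which could be technical. Other scalings, floors, a pseudocount of 0.1, a filter on dim probes, a block for equal numbers, averaged pairs of neighbouring numbers and leaving out each number were tried.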

Additional observations from a re-analysis of the deposited data

Results flagged for a closer look

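LHB1B2 in dark sample 6 stood at a normalized log2 level of 4.45, against 3.77 to 4.02 in the other 5 dark samples. It was flagged for that gap, as 1 of 46 groups of 6 values looked at, and about 1 in 20 groups is flagged by chance. None of the groups of the 4 redox genes held such a sample.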

How the results depend on the processing

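On the values as deposited the difference of NTRC was 0.35, that of SRX turned to 0.11 and that of AT3G52960 was 2.04, while the gap of AT5G58330 over NTRC was 2.58 and over SRX 2.81. With arrays centred on their median the difference of AT5G58330 was 2.38. With this centring the 2 gaps necessarily equalled those as deposited, since a single factor per array cancels in them. After quantile normalization they were 3.01 and 3.27. As deposited SBPASE stood at 0.46, AT2G47830 at 0.00457 and CSLA01 at 0.0806, opposite in sign to the normalized values. Over all probes 1715 were called higher and 479 lower as deposited, against 811 and 996 after normalization. With the pairs averaged 1199 were called, 520 of them higher, with fewer samples; without them averaged 1807 were. The replicate block gave 2069 calls and changed no call of a pathway gene. Leaving out each number in turn gave 1644 to 1700 calls, and -0.19 to -0.02 for NTRC, -0.38 to -0.33 for SRX, 1.47 to 1.66 for AT3G52960 and 2.74 to 2.99 for AT5G58330. The weak dark signal of AT3G52960 limits the size of its difference, which was 1.35 with the pseudocount in place of the floor. Moving the floor changed it less, to 1.60 at the 1st percentile and 1.58 at the 10th.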
